A study of Mus musculus with 10 samples.

Results

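The Notch pathway was described through 10 of its genes in colon tumors of mice: the receptors Notch1, Notch2 and Notch3, the ligands Jag1, Jag2, Dll1 and Dll4, and the targets and modulators Hes1, Nrarp and Lfng. The genes were chosen by name, and all 10 were found among the 16875 gene names of the expression table. Tumors had been induced in C57BL/6 mice, aged 6 to 10 weeks at the start, with the carcinogen azoxymethane (AOM) and 3 cycles of dextran sulfate sodium (DSS), which inflames the colon. The controls were 5 tumors homozygous for the conditional allele (Wls flox/flox), and the 5 Villin-WlscKO tumors carried the same allele with Villin-CreERT2, a tamoxifen-inducible recombinase driven in intestinal epithelium. Wls encodes Wntless, which Wnt proteins need for secretion, so the comparison asked how the tumors differed once their epithelium could no longer secrete Wnts. For the deletion, tamoxifen was given in 5 injections that began 30 days before collection. By the study's default, control tumors with intact Wnt secretion had received no tamoxifen. Whether the 5 tumors of a group came from 5 mice is not given in the sources used here, and p-values measure the spread between these tumors only. Stromal cells kept Wls by design, and each sample was a macrodissected piece of tumor holding many cell types.

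Notch receptors are transmembrane proteins that are activated by ligands of the Delta-like (Dll) and Jagged (Jag) families on a neighbouring cell. Binding leads to cleavage by ADAM proteases and gamma-secretase, and the freed intracellular part enters the nucleus, joins the DNA-binding protein RBPJ and a Mastermind-like (Maml) coactivator, and turns on genes such as Hes1 and Nrarp. Lfng is a Fringe glycosyltransferase that extends sugars on the receptor and so alters how it responds to Delta-like and Jagged ligands. In the intestinal crypt Notch activity keeps progenitors undifferentiated, and Hes1 represses Atoh1, which starts secretory cell formation.

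Expression was given by the authors as FPKM, which scales the sequenced fragments of a gene by its transcript length and by the number of mapped reads, for each tumor. The read depth behind the values is unknown. FPKM summed to between 1265992 and 1533885 in control tumors and between 1207683 and 1341494 in Villin-WlscKO tumors. Wls was at 61.3 to 79.9 FPKM in the controls, at 2.03 to 3.61 FPKM in Villin-WlscKO tumors 1, 4 and 5, and at 11.6 FPKM in tumor 2 and 11.7 FPKM in tumor 3 of that group. The groups also differed in sex: Xist, the RNA of the inactive X chromosome, was at 439 to 701 FPKM in Villin-WlscKO tumors and at most 0.420 FPKM in controls, while the Y-linked Eif2s3y was at 30.4 to 46.6 FPKM in controls and did not exceed 0.138 FPKM in the other group. Genotype, tamoxifen and sex therefore cannot be told apart in any comparison here. Villin-WlscKO tumors 2 and 3 stood apart from the rest. Krt5, a basal keratin of squamous epithelium, was at 469.5 and 669 FPKM in these tumors and at most 0.315 FPKM in the other 8, so each result that rests on this pair is given with and without it. Of the squamous markers, 8 were in the table, and all 8 had their highest Villin-WlscKO values in tumors 2 and 3; their summed FPKM was 1003 and 1332 there, 14.0 to 54.7 in the other 3 Villin-WlscKO tumors and 43.6 to 217 in controls, with Krt5, Trp63 and Krt1 at 0 in some tumors. The defining markers of colon epithelium were present in every tumor, with the summed FPKM of 10 pan-epithelial genes between 6320 and 8928 in controls and between 7793 and 9900 in Villin-WlscKO tumors.

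Of the 10 genes, Lfng fell in Villin-WlscKO tumors, and none of the other 9 passed the test in either direction. The test was limma on log2(FPKM + 1) with Benjamini-Hochberg adjustment over all 16757 genes tested and a threshold of 0.05, and all 10 genes passed the filter on low values. Notch3, Jag1, Nrarp and, less far, Notch2 and Jag2 were highest of all 10 tumors in Villin-WlscKO tumors 2 and 3. That pair was not highest of all tumors for Notch1, Dll1, Dll4 or Hes1. The values of the groups overlapped for all 9 genes other than Lfng. By the same test 10.9% of all genes passed, 6.12% of them higher and 4.75% lower, so a share of 1 in 10 called is near the background. An unadjusted limma p under 0.05 was found for 3 of the 10 genes (Lfng, Nrarp and Jag1) and for 25.7% of all genes.

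Lfng lies on chromosome 5 (chr5:140607320-140615545, forward strand, GRCm38, GENCODE M21), and no other annotated gene overlaps it. Its values were 33.9, 35.6, 31.8, 34.5 and 29.5 FPKM in control tumors 1 to 5 and 21.2, 25.2, 19.2, 17.3 and 19.0 FPKM in Villin-WlscKO tumors 1 to 5. The highest value after deletion was thus under the lowest control value. Groups without overlap in either direction were seen for 10.1% of all genes tested and for 1 of the 10 Notch genes, and in this direction for 4.76% of all genes. Mean Lfng was 33.1 ± 2.41 FPKM (SD, n = 5 tumors) in controls and 20.4 ± 3.04 FPKM (SD, n = 5) in Villin-WlscKO tumors, which is 61.6% of the control mean. On the log2(FPKM + 1) scale the change was -0.68 (SE 0.099, 95% CI -0.90 to -0.46, limma adjusted p = 0.00204), and an exact two-sided permutation test gave p = 0.00794, the smallest that 5 against 5 tumors allow. The change was as large without the squamous pair: leaving out Villin-WlscKO tumors 2 and 3, it was -0.76 (SE 0.094, limma adjusted p = 0.00295). In these bulk samples fewer Lfng-expressing cells and less Lfng RNA per cell cannot be told apart. Goblet cell markers moved with the groups, with 7 of 8 higher in sign and 3 of 8 called higher (Muc2, Agr2 and Spink4), against 6.12% of all genes. Their summed FPKM was 2680 to 12229 in controls and 23174 to 28628 in Villin-WlscKO tumors, with none at 0. Without tumors 2 and 3, Muc2 and Agr2 were called higher and Spink4 was not. The part of goblet cells in the change of Lfng was not tested.

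**Figure D1:**
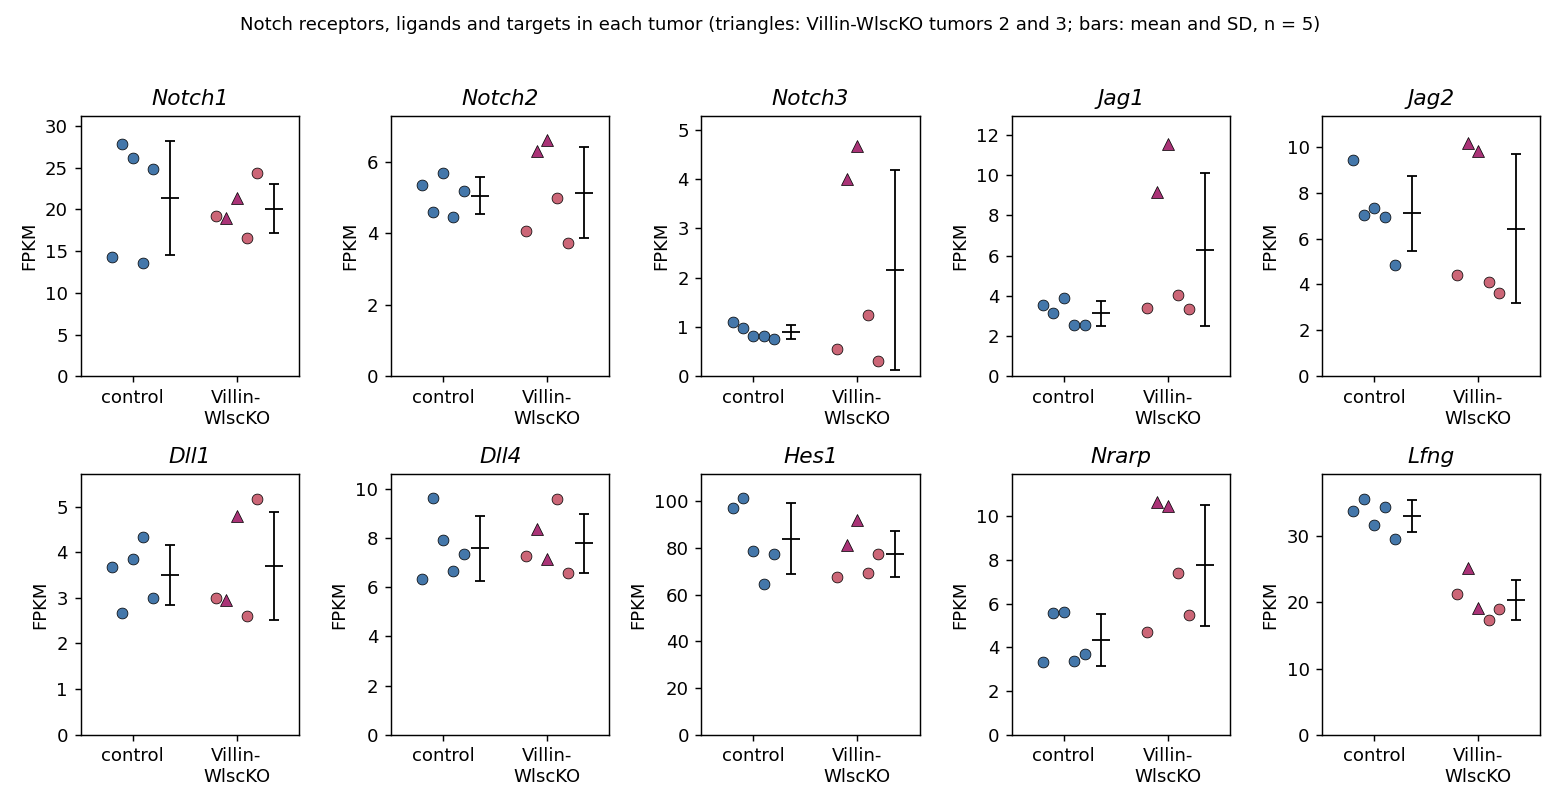
FPKM of each of the 10 genes in each of the 10 tumors, 1 panel per gene with its own linear axis from 0; points are tumors, triangles are Villin-WlscKO tumors 2 and 3, and the bars beside them give the mean and SD of the 5 tumors of a group. The Lfng values of the groups do not overlap (17.3 to 25.2 against 29.5 to 35.6 FPKM), and the triangles are the highest points for Notch2, Notch3, Jag1, Jag2 and Nrarp.

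The Notch protein complex binds DNA through RBPJ, and the sequences before 4 of the genes are shown. Of these genes Lfng fell between the groups, and Nrarp, Notch3 and Jag1 were high in the same pair of tumors. Notch2 and Jag2 were also highest in that pair and are not shown. The 4 sequences are from RefSeq, build GRCm38.p6, written 5′ to 3′ on the strand of the gene and ending before the first base that GENCODE places in the gene. That of Notch3 ends at its RefSeq start, at 32166891, short of the GENCODE start at 32166852. Capitals mark the core letters of the RBPJ motif, TGGGAA, or its reverse complement TTCCCA, which the last 3 of these sequences do not hold.
Lfng, chr5:140607091-140607319, forward strand: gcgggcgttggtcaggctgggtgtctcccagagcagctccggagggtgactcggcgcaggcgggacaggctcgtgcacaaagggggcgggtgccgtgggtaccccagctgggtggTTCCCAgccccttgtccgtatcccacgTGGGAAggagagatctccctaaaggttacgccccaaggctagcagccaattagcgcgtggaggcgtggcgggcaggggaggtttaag
Nrarp, chr2:25180508-25180757, forward strand: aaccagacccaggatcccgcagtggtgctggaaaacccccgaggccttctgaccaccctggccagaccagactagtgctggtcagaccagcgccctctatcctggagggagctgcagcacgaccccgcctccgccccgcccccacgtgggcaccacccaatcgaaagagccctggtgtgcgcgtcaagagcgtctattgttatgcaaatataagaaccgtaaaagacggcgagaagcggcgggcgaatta
Notch3, chr17:32166891-32167140, reverse strand: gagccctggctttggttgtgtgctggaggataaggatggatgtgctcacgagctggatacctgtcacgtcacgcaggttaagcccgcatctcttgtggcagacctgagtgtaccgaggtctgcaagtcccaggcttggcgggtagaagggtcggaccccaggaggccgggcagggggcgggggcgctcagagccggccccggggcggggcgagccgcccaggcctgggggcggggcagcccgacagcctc
Jag1, chr2:137116645-137116770, reverse strand: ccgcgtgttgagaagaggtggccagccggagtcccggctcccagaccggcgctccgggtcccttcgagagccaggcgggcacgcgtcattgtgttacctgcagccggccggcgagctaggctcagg

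RefSeq windows of 300 bases around a start were at hand for 9 of the 10 genes, 10 windows in all. Hes1 had no window, so its promoter was not searched. The motif was searched in the whole window on both strands. Lfng held it at -135 as TTCCCA and at -108 as TGGGAA, counted from its RefSeq start. No other window of the 10 genes held these letters, against 25.6% of all 32851 windows of that length. The TCF/LEF letters CTTTGAT or ATCAAAG, through which Wnt signalling acts on DNA, were in none of the windows of the 10 genes and in 3.73% of all windows. A match of a few letters is a description of the window and not a binding site.

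Among the receptors, Notch1 was the most abundant and did not differ detectably. It was at 14.3, 27.8, 26.2, 13.6 and 24.8 FPKM in control tumors 1 to 5 and at 19.2, 18.9, 21.4, 16.6 and 24.3 FPKM in Villin-WlscKO tumors 1 to 5. All Villin-WlscKO values lay inside the control range, which was wide because control tumors 1 and 4 were well below control tumors 2, 3 and 5. The change was -0.03 (SE 0.21, limma adjusted p = 0.945; exact permutation p = 0.897), with a 95% CI of -0.50 to 0.43. In FPKM + 1 this interval runs from 0.709-fold to 1.34-fold.

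Notch2 was at 5.36, 4.58, 5.67, 4.46 and 5.18 FPKM in the controls and at 4.07, 6.29, 6.59, 4.99 and 3.73 FPKM in Villin-WlscKO tumors. Villin-WlscKO tumors 2 and 3 were above every control and tumors 1 and 5 below every control, so that the means were close, at 5.05 ± 0.514 and 5.13 ± 1.28 FPKM (SD, n = 5), and the spread was wider in the Villin-WlscKO group. The change was -0.0013 (SE 0.15, 95% CI -0.32 to 0.32, limma adjusted p = 0.997), and it was -0.20 (SE 0.12, limma adjusted p = 0.365) without tumors 2 and 3. The name RP23-3C4.2 carried the same 10 values as Notch2, so the values of these names cannot be told apart.

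Notch3, known for its role in vascular smooth muscle, was the least abundant of the 10 genes. It was at 1.10, 0.978, 0.817, 0.811 and 0.760 FPKM in the controls, at 4.00 FPKM in Villin-WlscKO tumor 2 and 4.66 FPKM in tumor 3, while tumors 1, 4 and 5 had 0.556, 1.24 and 0.319 FPKM. The pair stood above all other tumors, and tumors 1 and 5 were below every control. The change of 0.49 (SE 0.39, 95% CI -0.37 to 1.35, limma adjusted p = 0.480; exact permutation p = 0.381) turned to -0.18 (SE 0.18, limma adjusted p = 0.604) without the pair. Endothelial markers were also high in tumor 2 (summed FPKM 113, and 88.8 in tumor 3, against 34.3 to 65.5 in the other Villin-WlscKO tumors and 36.5 to 96.9 in controls), with 0 of 10 called and none at 0. Pericyte and smooth muscle markers summed to 155 and 176 FPKM in the pair, 94.1 to 182 in the other 3 and 85.4 to 172 in controls, with 0 of 9 called and none at 0. Fibroblast markers summed to 1184 and 660.2 FPKM in the pair, 401 to 643 in the other 3 and 297 to 1041 in controls. Of them 1 of 8 was called higher (Fbln1), against 6.12% of all genes, and none was at 0. The part of these cells and of squamous epithelium in the Notch3 values was not tested.

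The Jagged ligands followed the same pair of tumors. Jag1 was at 3.53, 3.17, 3.91, 2.53 and 2.53 FPKM in the controls and at 3.38, 9.15, 11.5, 4.03 and 3.33 FPKM in Villin-WlscKO tumors 1 to 5. Tumors 2 and 3 were far above all others, tumor 4 was just above the highest control, and tumors 1 and 5 lay within the control range. Mean Jag1 was 3.13 ± 0.611 FPKM in controls and 6.28 ± 3.81 FPKM after deletion (SD, n = 5), but the change of 0.68 (SE 0.30, 95% CI 0.0036 to 1.35) did not pass (limma adjusted p = 0.192; exact permutation p = 0.0714). Without the pair it was 0.16 (SE 0.15, limma adjusted p = 0.578).

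Jag2 was at 9.42, 7.004, 7.32, 6.92 and 4.85 FPKM in the controls, at 10.2 FPKM in Villin-WlscKO tumor 2 and 9.80 FPKM in tumor 3, while tumors 1, 4 and 5 had 4.42, 4.12 and 3.65 FPKM. The Villin-WlscKO group thus split around the controls, with the pair above every control and the other 3 below every control. Over all tumors the change was -0.21 (SE 0.28, 95% CI -0.82 to 0.40, limma adjusted p = 0.694; exact permutation p = 0.484). Without the pair it was -0.66 (SE 0.17, 95% CI -1.06 to -0.26), which did not pass the threshold either (limma adjusted p = 0.0623), in a fit in which 6.63% of 16599 genes passed.

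The Delta-like ligands did not share this pattern. Dll1 was at 3.67, 2.68, 3.85, 4.33 and 2.99 FPKM in the controls and at 2.99, 2.95, 4.81, 2.61 and 5.16 FPKM in Villin-WlscKO tumors. Dll4, a ligand best known from endothelial cells and also made in crypts, was at 6.32, 9.66, 7.93, 6.67 and 7.35 FPKM in the controls and at 7.27, 8.36, 7.14, 9.58 and 6.60 FPKM in Villin-WlscKO tumors. For both genes the values of the groups were intermixed and tumors 2 and 3 did not stand out together. The change of Dll1 was 0.04 (SE 0.18, 95% CI -0.35 to 0.43, limma adjusted p = 0.921; exact permutation p = 0.865). That of Dll4 was 0.04 (SE 0.13, 95% CI -0.25 to 0.32, limma adjusted p = 0.896; exact permutation p = 0.770). In FPKM + 1 its interval runs from 0.843-fold to 1.25-fold.

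**Figure D2:**
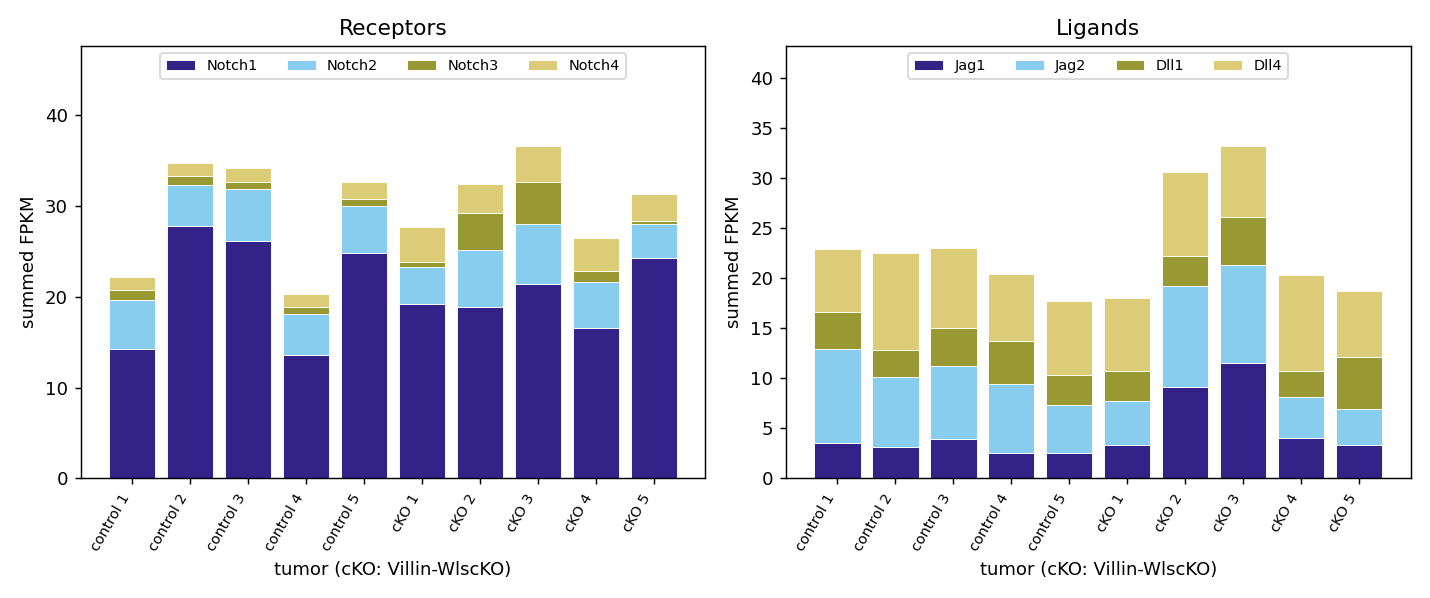
Summed FPKM of the 4 Notch receptors (left) and of the 4 ligands Jag1, Jag2, Dll1 and Dll4 (right) in each tumor, stacked by gene on linear axes from 0; cKO stands for Villin-WlscKO. The ligand sum is 30.6 and 33.3 FPKM in Villin-WlscKO tumors 2 and 3 and 17.7 to 23.01 FPKM in the other 8 tumors, and Notch1 is the largest part of every receptor bar.

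The make-up of the families shows the same split. Notch1 made up 64.4% to 80.0% of the summed FPKM of the 4 receptors in controls and 58.2% to 77.4% in Villin-WlscKO tumors. Notch3 made up 12.3% and 12.7% in Villin-WlscKO tumors 2 and 3, at most 4.66% in the other Villin-WlscKO tumors and at most 4.93% in controls. Jag1 and Jag2 together were 63.0% and 64.1% of the ligand sum in the pair, 37.3% to 43.2% in the other 3 Villin-WlscKO tumors and 41.6% to 56.4% in controls. The Delta-like ligands thus held the larger share in those 3 tumors, as they did in control tumors 2 to 5. In control tumor 1 the Jagged ligands held it, at 56.4%. In the receptors a further difference came from Notch4, which held 3.97% to 6.88% in controls and 9.68% to 14.1% in Villin-WlscKO tumors.

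Hes1, the transcriptional repressor that serves as the common readout of Notch activity in the gut, did not differ detectably. It was at 97.1, 101.5, 78.7, 64.7 and 77.4 FPKM in the controls and at 67.4, 81.4, 91.9, 69.2 and 77.4 FPKM in Villin-WlscKO tumors. Every Villin-WlscKO value lay inside the control range, and among the Villin-WlscKO tumors the pair was highest. The change was -0.10 (SE 0.13, 95% CI -0.40 to 0.19, limma adjusted p = 0.679; exact permutation p = 0.484).

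Nrarp, a Notch target whose protein dampens Notch signalling, was at 3.34, 5.59, 5.62, 3.38 and 3.71 FPKM in the controls and at 4.71, 10.7, 10.5, 7.39 and 5.49 FPKM in Villin-WlscKO tumors. Tumors 2, 3 and 4 were above every control, and tumors 1 and 5 lay within the control range. The mean went from 4.33 ± 1.17 to 7.75 ± 2.76 FPKM (SD, n = 5), a change of 0.68 (SE 0.23, 95% CI 0.17 to 1.19). It missed the threshold (limma adjusted p = 0.0881), while the exact permutation test of this gene alone gave p = 0.0476, unadjusted for the 10 genes tested in the same way. Without the pair the change was 0.37 (SE 0.20, limma adjusted p = 0.319), and without Villin-WlscKO tumor 1 Nrarp passed (limma adjusted p = 0.0462).

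**Figure D3:**
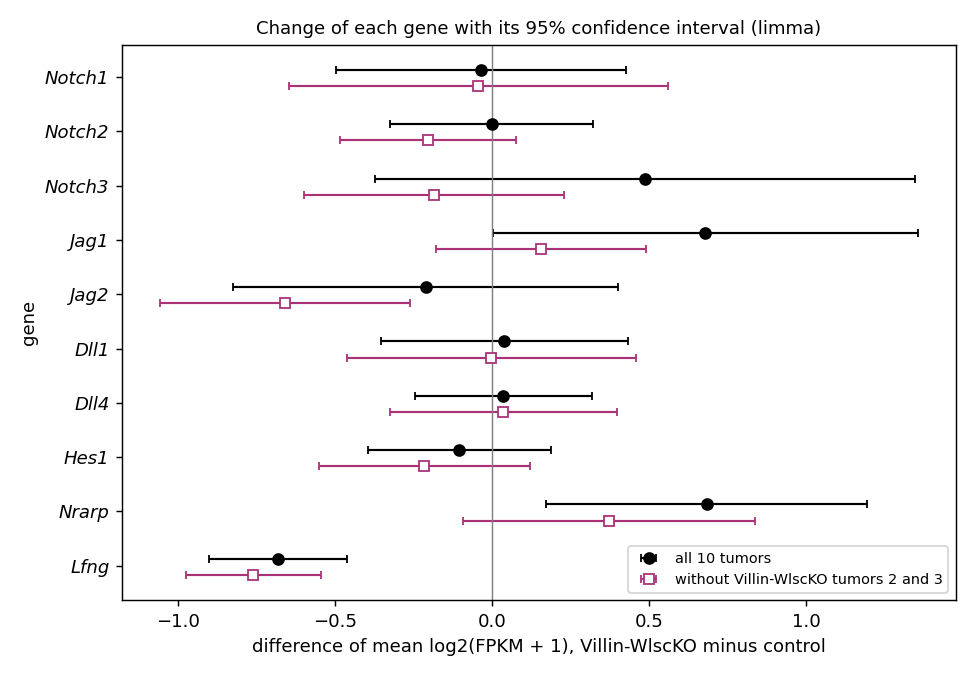
Change in mean log2(FPKM + 1) from control to Villin-WlscKO tumors for each of the 10 genes with its 95% confidence interval from limma; filled circles use all 10 tumors, open squares leave out Villin-WlscKO tumors 2 and 3. The Lfng interval stays below 0 in both fits, that of Notch3 moves from 0.49 to -0.18, and that of Jag2 lies below 0 when the pair is left out.

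Read over the 10 genes, Villin-WlscKO tumors 2 and 3 were the highest of the Villin-WlscKO group for 6 (Notch2, Notch3, Jag1, Jag2, Hes1 and Nrarp), as for 16.1% of all genes tested. They were the highest of all 10 tumors for 5 of these, all but Hes1, as for 6.67% of all genes. The pair was also highest in Wls among the Villin-WlscKO tumors, and highest in squamous markers. After subtraction of each group's mean, Jag1 correlated across the 10 tumors with Notch3 (Pearson r 0.950), Jag2 (0.923) and Notch2 (0.915), and Dll1 ran against Dll4 (-0.745). These correlations describe 10 tumors from the same libraries, in which the pair had the highest values of Jag1, Jag2, Notch2 and Notch3.

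The genes most like each member, by the same correlation over 15352 genes, were squamous for some. Jag2 was closest to Krt14 (r 0.969) and Dsg3 (0.968), a keratin and a desmosomal cadherin of the basal squamous layer, and Notch3 to Cnfn (0.9903), a gene of cornified epithelium. Krt14 was at 262 and 243 FPKM in the pair and at most 113 FPKM in the other 8 tumors. Jag1 was closest to Ssbp2 (0.996) and Notch2 to Ntn4 (0.985). Nrarp was closest to Celsr2 (0.943), Dll1 to Rtca (0.930), Dll4 to Wdr54 (0.961) and Hes1 to Fbxw4 (0.966). Lfng was closest to Ybey (0.952), followed by Irgm1 (0.922), an interferon-induced GTPase.

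The order of levels, which FPKM allows since it is per kilobase, was Hes1, Lfng, Notch1, Dll4, Jag2, Notch2, Nrarp, Dll1, Jag1 and Notch3 in the controls, from 83.9 ± 15.2 down to 0.892 ± 0.140 FPKM (SD, n = 5). Down to Dll4 the ranges of neighbours in this order did not overlap, nor did those of Jag1 and Notch3. From Dll4 to Jag1 each neighbour overlapped with the next, and the order held in 3 or 4 of 5 tumors. In Villin-WlscKO tumors Lfng, at 20.4 ± 3.04 FPKM, came down to the level of Notch1, at 20.1 ± 2.90 FPKM (SD, n = 5), and was above it in 3 of 5 tumors. Nrarp moved up to the fifth place, at 7.75 ± 2.76 FPKM, next to Dll4 at 7.79 ± 1.19 FPKM (SD, n = 5).

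Of 55 other genes of the pathway that were listed, 47 were in the table and tested, of which 4 rose, 2 fell and 41 did not pass. The share called was 12.8%, against 10.9% of all genes, and the median change of the 47 was 0.0073, as was that of all genes. Neither the glycosylation and cleavage genes (0 of 14) nor most trafficking genes (1 of 14) passed. In the first list Aph1b and Aph1c had the same 10 values and were counted apart. Numbl, a trafficking gene, shared its values with Adck4. The other Fringe genes did not pass: Mfng was at 1.70 ± 0.330 FPKM (SD, n = 5) in controls and 2.16 ± 1.14 FPKM (SD, n = 5) in Villin-WlscKO tumors, and Rfng at 11.2 ± 0.604 and 11.8 ± 1.96 FPKM (SD, n = 5), with changes of 0.16 (95% CI -0.32 to 0.65) and 0.06 (95% CI -0.18 to 0.29). Whether the change of Lfng differed from theirs was not tested.

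Notch4, the receptor best known from endothelial cells, rose. It was at 1.38 to 1.87 FPKM in the controls and at 3.04 to 3.98 FPKM in Villin-WlscKO tumors, without overlap, a change of 0.86 (SE 0.10, limma adjusted p = 0.000551) that was 0.85 without the pair. The 10 endothelial markers had 0 called genes, as given above for Notch3, against 10.9% of all genes. The part of endothelial cells in the change of Notch4 was not tested. Dtx3l, a ubiquitin ligase of the Deltex family, rose from 15.1 ± 1.24 to 30.03 ± 2.84 FPKM (SD, n = 5), a change of 0.94 (SE 0.085, limma adjusted p = 8.7e-05). Leukocyte markers moved with the groups beside it, with 2 of 10 called higher (Cd3e and Cd8a), against 6.12% of all genes. Their summed FPKM was 75.3 to 305 in controls and 217 to 532 in Villin-WlscKO tumors, with Ms4a1 at 0 in some tumors. The largest sums were in the squamous pair (532 and 471 FPKM), and those of Villin-WlscKO tumors 1, 4 and 5 were 217 to 398 FPKM. Without the pair 0 of 9 leukocyte markers tested were called, in a fit in which 6.63% of all genes passed. The change of Dtx3l in that fit was 0.92 (limma adjusted p = 0.00224). The part of leukocytes in the change of Dtx3l was not tested. In the nuclear complex Rbpj was at 5.60 ± 0.443 and 5.08 ± 0.391 FPKM (SD, n = 5), a change of -0.12 (SE 0.084, limma adjusted p = 0.424). Maml3, which encodes a coactivator of the complex, fell from 4.83 ± 0.468 to 2.55 ± 0.504 FPKM (SD, n = 5), a change of -0.72 (SE 0.12, limma adjusted p = 0.00385) with no overlap.

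Among the Hes and Hey factors 3 of 8 listed genes were in the table and the others were not analysed here. Hes6, which is known to oppose Hes1, fell from 321 ± 72.6 to 211 ± 23.2 FPKM (SD, n = 5), a change of -0.58 (SE 0.14, limma adjusted p = 0.0263) that was -0.49 without the pair (limma adjusted p = 0.122) and -0.48 after rescaling each tumor to the same FPKM sum (limma adjusted p = 0.109), and passed in neither. It also lost its call when any of control tumors 1 and 5 or Villin-WlscKO tumors 3 and 5 was left out, with adjusted p of at most 0.0634. Hes2 did not overlap between the groups, at 0.320 to 0.542 FPKM in controls and 0.559 to 2.72 FPKM in Villin-WlscKO tumors, but did not pass (change 0.47, SE 0.22, limma adjusted p = 0.214). Hey1, a direct Notch target, was at 4.73, 5.31, 3.94, 4.26 and 1.99 FPKM in the controls and at 2.16, 1.72, 1.32, 4.04 and 2.17 FPKM in Villin-WlscKO tumors. The groups overlapped through control tumor 5 and Villin-WlscKO tumor 4, and the change of -0.63 (SE 0.24, 95% CI -1.17 to -0.089, limma adjusted p = 0.132) did not pass. It was -0.81 without control tumor 5, where it passed (limma adjusted p = 0.0469), and -0.41 without the pair (limma adjusted p = 0.412).

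Of the 3 secretory lineage factors tested, which act below Notch in the crypt, 2 were called higher (Gfi1 and Spdef), against 6.12% of all genes. For all 3 the groups did not overlap, as for 10.1% of all genes in either direction. Without the pair only Gfi1 was called, in a fit in which 6.63% of all genes passed. Gfi1 rose from 1.98 ± 0.839 to 5.02 ± 0.897 FPKM (SD, n = 5), a change of 1.05 (SE 0.19, limma adjusted p = 0.00673). Spdef, a factor of goblet cell maturation, rose from 8.78 ± 5.26 to 26.6 ± 5.31 FPKM (SD, n = 5), a change of 1.71 (SE 0.41, limma adjusted p = 0.0232). Its change was as large without the pair, at 1.79, but did not pass there (limma adjusted p = 0.0766). It did not pass either without control tumor 4 (change 1.55, limma adjusted p = 0.0590), without Villin-WlscKO tumor 3 (1.68, 0.0543) or without tumor 5 (1.63, 0.0542). Atoh1, which Hes1 represses, was at 1.87, 8.71, 7.19, 1.82 and 10.3 FPKM in the controls and at 10.6, 10.5, 13.1, 17.5 and 17.3 FPKM in Villin-WlscKO tumors. All Villin-WlscKO values were above all controls, although the change of 1.29 (SE 0.41, limma adjusted p = 0.0730) did not pass, and it passed without control tumor 5 (limma adjusted p = 0.0473). The goblet cell markers named beside Lfng moved in the same direction as these factors, and their part in them was not tested.

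**Figure D4:**
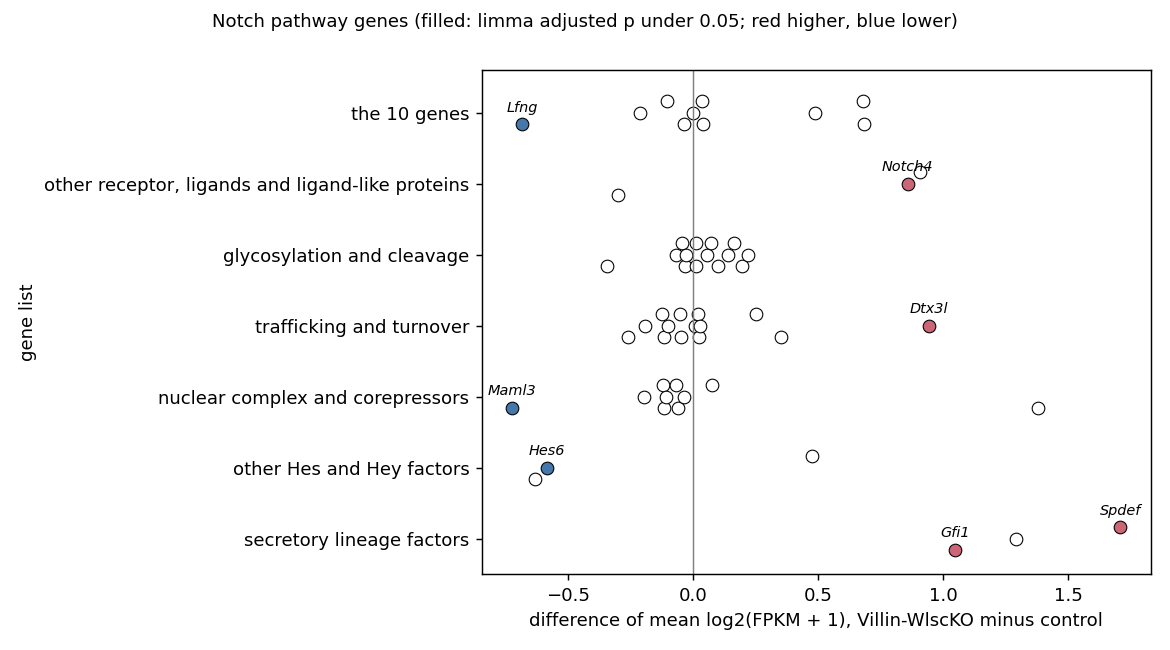
Change in mean log2(FPKM + 1) from control to Villin-WlscKO tumors for the 10 genes and for the 47 other pathway genes tested, 1 circle per gene and 1 line per list, with circles spread vertically for legibility; filled circles passed limma at an adjusted p under 0.05, red for higher and blue for lower. The 7 named circles are Lfng, Maml3 and Hes6 below 0 and Notch4, Dtx3l, Gfi1 and Spdef above it, while the 14 glycosylation and cleavage genes are all open.

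The genes overlap others in the annotation to different extents, which bears on how their values can be read. Hes1 (chr16:30064384-30067796), Jag1 (chr2:137081456-137116644) and Lfng overlap no other annotated gene. Notch3 (chr17:32120820-32166852), Nrarp (chr2:25180758-25183339), Dll1 (chr17:15367354-15376872) and Dll4 (chr2:119325784-119335962) overlap genes on the opposite strand. Notch1 (chr2:26457903-26516663) overlaps genes on the opposite strand and a microRNA gene on its own strand. Notch2 (chr3:98013527-98150361) overlaps genes on its own strand, and Jag2 (chr12:112907819-112929776) a microRNA gene. Of the other pathway genes called, Maml3 overlaps 15 annotated genes, on both strands, and Dtx3l the protein-coding Parp9 on the opposite strand. Notch4 and Gfi1 each overlap 1 gene on the opposite strand, and Hes6 and Spdef overlap none. All positions are on GRCm38 with GENCODE M21. The libraries were stranded, but whether strand was used in quantification is not stated in the sources used here, and without it the reads of a gene and its antisense partner cannot be told apart.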

How the data were processed

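Total RNA of 10 AOM/DSS colon tumors was sequenced from stranded mRNA libraries. Per the labels and the paper's methods, the authors mapped the reads, after FastQC, with TopHat2 2.1.1 (GRCm38.p5) and quantified each tumor's genes as FPKM with Cufflinks 2.2.1 and Cuffdiff. The deposited FPKM are not counts, so no count test was used. Of the names, 2419 share all 10 values with another name, as when a locus of several genes gives each the same FPKM. All 10 columns were mapped by their labels.

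The comparison used limma 3.58.1 (R 4.3.3) on log2(FPKM + 1), where 1 is the pseudocount, over genes averaging 0.5 FPKM or more, with an eBayes trend and no covariate. A fold change on this scale understates that of low genes. The method was tested on simulated data. Exact permutation tests used all 252 arrangements of the tumors (Python 3.11.15, scipy 1.17.1, numpy 2.4.6, pandas 2.3.3; figures, matplotlib 3.10.9). The 10 genes, the pathway and marker lists and the tests were chosen with earlier results of these data known. Named are the 10 genes, the other pathway genes that passed or whose groups did not overlap, and genes most correlated with them, of which 1 result is not reported here; Mfng, Rfng, Rbpj, Hey1, Maml2, Dlk1 and Dlk2 were named after their values were seen.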

Additional observations from a re-analysis of the deposited data

Results flagged for a closer look

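In 3 groups of 5 tumors, 1 tumor lay far from the others by Dixon's gap test, in which the gap to the nearest tumor is divided by the range of the group and compared with 0.71. Dtx3l was lowest in control tumor 2, at 13.0 FPKM with the next at 15.4 FPKM (gap over range 0.737). Maml3 was lowest in control tumor 3, at 4.02 FPKM with the next at 4.90 FPKM (0.724). Hes2 was highest in Villin-WlscKO tumor 3, at 2.72 FPKM with the next at 0.956 FPKM (0.816). The test covered 36 groups over 18 genes, and chance alone marks about 1 in 20 groups. None of the 10 Notch genes was among them.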

How the results depend on the processing

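Lfng passed the threshold under all 22 alternatives with a test, at changes between -0.76 and -0.57 (limma adjusted p from 0.000692 to 0.00893). Nrarp was the 1 member that rose under 2 of them, with the replicate number as a block (limma adjusted p = 0.0183) and without Villin-WlscKO tumor 1, and leaving out each tumor in turn gave 0 or 1 members higher. The block moved no other call of the 10 genes. Deviations of same-numbered tumors from their group means correlated at 0.064, -0.087, 0.063, 0.10 and 0.16. These values cannot decide whether same numbers in both groups mark pairs, since each compares a single tumor per group. Of the other pathway genes 1 instead of 2 fell after rescaling to equal FPKM sums, at a mean FPKM of at least 5 (Maml3 not tested there) and without tumors 2 and 3, and leaving out each tumor gave 1 or 2. Rescaling moved the median of all genes from 0.0073 to 0.097 and the calls over all genes from 1026 higher and 796 lower to 1373 and 410, and quantile normalization moved them to 893 and 1125. Genes without a call changed sign. Notch1 was 0.063 after rescaling and ran from -0.17 to 0.073 when each tumor was left out. Notch2 was 0.084 after rescaling, 0.0053 with array quality weights and 0.024 as a ratio of mean FPKM, and ran from -0.085 to 0.086. Notch3 was -0.18 without tumors 2 and 3. Dll1 was -0.010 with quantile normalization, -0.0014 without tumors 2 and 3 and -0.29 as a ratio of medians, and ran from -0.066 to 0.13. Dll4 was -0.015 as a ratio of medians and ran from -0.033 to 0.12. The cause was not tested. Read depth is unknown, so precision rests on 5 tumors a group.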

Other observations

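Some pathway genes that did not pass had their highest values in Villin-WlscKO tumor 2 or 3, or in both. Both tumors were highest of their group for 2 of 14 glycosylation and cleavage genes and 3 of 14 trafficking genes. The same held for 2 of 10 nuclear complex genes and 1 of 3 other receptor and ligand-like genes. It held for 0 of 3 Hes and Hey genes and 0 of 3 secretory factors, against 16.1% of all genes tested. Dlk2, which encodes a ligand-like protein, was listed at 0 in 8 tumors and at 2.77 FPKM in Villin-WlscKO tumor 2 and 5.16 FPKM in tumor 3. Maml2, a Mastermind-like coactivator gene whose 10 values are shared with Gm22643, was listed at 1376 FPKM in Villin-WlscKO tumor 2 and at 0.771 to 2.69 FPKM in the other 9 tumors. Dlk1 was at 10.2 FPKM in Villin-WlscKO tumor 2 and at most 3.15 FPKM in the other 9 tumors, with 0 listed in Villin-WlscKO tumors 4 and 5.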
